A study of Homo sapiens with 2 samples.

Results

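The 10 genes described here encode the NF-kB subunits, their inhibitors, a feedback enzyme and a chemokine that NF-kB induces. They were taken by symbol from a deposited table of gene expression, in which all 10 were listed, among 10987 genes in all. The table holds 2 libraries of RNA sequencing. By its labels, the bort-treated library came from THP-1, a monocytic leukaemia line, exposed to bortezomib (bort), an inhibitor of the proteasome, for 24 h. The other, labelled untreated, carries the label of the same line, without the drug. The dose used for sequencing is not given in the sources used here. With 1 library per condition there was no replicate, so every difference below compares 2 libraries, and no p-value, error or interval can be attached to it. Values are FPKM, counts of sequenced fragments divided by transcript length and by library size, a scale per length on which genes can be compared within a library. Log2 differences were taken on log2(FPKM + 1), bort-treated minus untreated, and understate the change of genes with low FPKM.

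NF-kB is a family of transcription factors that act as dimers. In the canonical pathway, dimers of p50 (made from the NFKB1 product), p65 (RELA) and c-Rel (REL) are held in the cytoplasm by IkB proteins until an IkB kinase marks these for ubiquitination and destruction by the proteasome. In the non-canonical pathway the kinase NIK accumulates and the proteasome processes the NFKB2 product p100 to p52, which pairs with RelB. In monocytic cells NF-kB is known for driving inflammatory cytokines and survival genes, and NFKBIA, TNFAIP3, NFKB2 and RELB are themselves known targets.

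The labelled cell type was checked against its markers. Of 16 monocytic and myeloid marker genes 6 were listed, and neither CD14 nor CSF1R, a co-receptor for lipopolysaccharide and the receptor for M-CSF, was among them. The highest of the 6 in the untreated library was LYZ, lysozyme, at 7.61 FPKM. Of 16 erythroid marker genes 15 were listed, and the fetal haemoglobin gene HBG1 reached 1487 FPKM in the untreated library, a value uncertain because HBG2 is nearly identical to it. These levels go against the label, so the samples are named by their labels throughout. The summed FPKM of the 6 monocytic markers was 24.8 in the untreated and 64.4 in the bort-treated library, with 5 of the 6 higher in the latter. ITGAM and S100A9, 2 of those 5, were below 0.501 FPKM untreated, the smallest value that any gene reached in its higher library, and so could be listed only by being higher. The summed FPKM of the 15 erythroid markers was 5076 and 4440, with 10 of the 15 lower. These marker levels differed between the same 2 libraries as the NF-kB genes below, and their part in the differences of those genes was not tested. In bulk RNA, fewer cells of a type and less RNA per cell cannot be told apart.

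NF-kB dimers bind kB sites in DNA. RefSeq promoter windows, running from 250 bases before to 50 after a listed transcription start (GRCh38.p14, not the build of the table), were found for 8 of the 10 genes. A kB match was taken as GG, a purine, any pair of bases, a pair of pyrimidines and CC, on either strand, and the longer form has a further G in front. An AP-1 match was TGACTCA or TGAGTCA. The stretch before the start of CXCL8 is shown because this gene differed most between the libraries. It lies at chr4:73740419-73740499, plus strand, from position -150 to -70, and its capitals mark the AP-1 match and the kB match in that order.
CXCL8: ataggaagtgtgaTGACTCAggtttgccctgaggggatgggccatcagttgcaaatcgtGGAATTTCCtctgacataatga
A longer match from each of 6 further genes is shown in capitals, with 10 bases on each side. This lets genes higher and genes lower in the bort-treated library be compared. TNFAIP3, NFKB2, REL and NFKBIB hold other longer matches, some overlapping, that are not shown.
TNFAIP3 (chr6:137867194-137867223, plus strand): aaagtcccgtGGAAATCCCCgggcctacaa
NFKB2 (chr10:102394461-102394490, plus strand): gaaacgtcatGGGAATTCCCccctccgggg
NFKBIA (chr14:35404811-35404840, minus strand): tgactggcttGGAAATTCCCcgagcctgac
REL (chr2:60881517-60881546, plus strand): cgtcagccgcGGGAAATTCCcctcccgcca
NFKB1 (chr4:102501300-102501329, plus strand): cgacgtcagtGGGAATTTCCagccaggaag
NFKBIB (chr19:38899931-38899960, plus strand): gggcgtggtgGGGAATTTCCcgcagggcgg
The letters GGAAATTCCC or their reverse complement occurred in NFKBIA, REL, NFKB1 and NFKBIB, the former pair higher and the latter pair lower in FPKM after bort. The short kB match was found in all 8 genes, in 10 of their 13 windows, against 32.1% of all 35116 promoter windows of the same length. The longer match was in 6 genes and 7 windows, against 11.3% of all windows. CXCL8 alone of the 8 held the AP-1 letters, which 4.95% of all windows hold. Windows of 1 gene lie close together, and a match describes letters, not binding.

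CXCL8 encodes interleukin 8, a chemokine that attracts neutrophils. It stood at 0.293 FPKM in the untreated library and at 27.6 FPKM in the bort-treated library, a log2 difference of 4.47 and a ratio of FPKM of 94.2. Only 2 of the 10987 genes had a more positive log2 difference. CXCL8 thus went from the lowest to the highest FPKM of the 10 genes, passing from rank 10761 to rank 1274 of the table. Its untreated value too is below 0.501 FPKM, so CXCL8 is in the table through the bort-treated library and had to be higher there. The reads behind a value so low are unknown, and the ratio has no counting error. The 3 genes nearest to CXCL8 in level in both libraries were AC120057.3, CDKN1A and AHNAK. AC120057.3 was listed at 0 and 21.9 FPKM. CDKN1A, which encodes the cell cycle inhibitor p21, was at 0.680 and 19.8 FPKM, and AHNAK, a giant scaffold protein, at 0.455 and 17.5 FPKM.

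TNFAIP3 encodes A20, a ubiquitin-editing enzyme that shuts off canonical signalling and is induced by NF-kB. Its level was 0.532 FPKM in the untreated and 3.73 FPKM in the bort-treated library, a log2 difference of 1.63 and a ratio of 7.01. TNFAIP3 was second to CXCL8 among the 10 genes, and 197 genes of the table had a more positive difference.

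**Figure D1:**
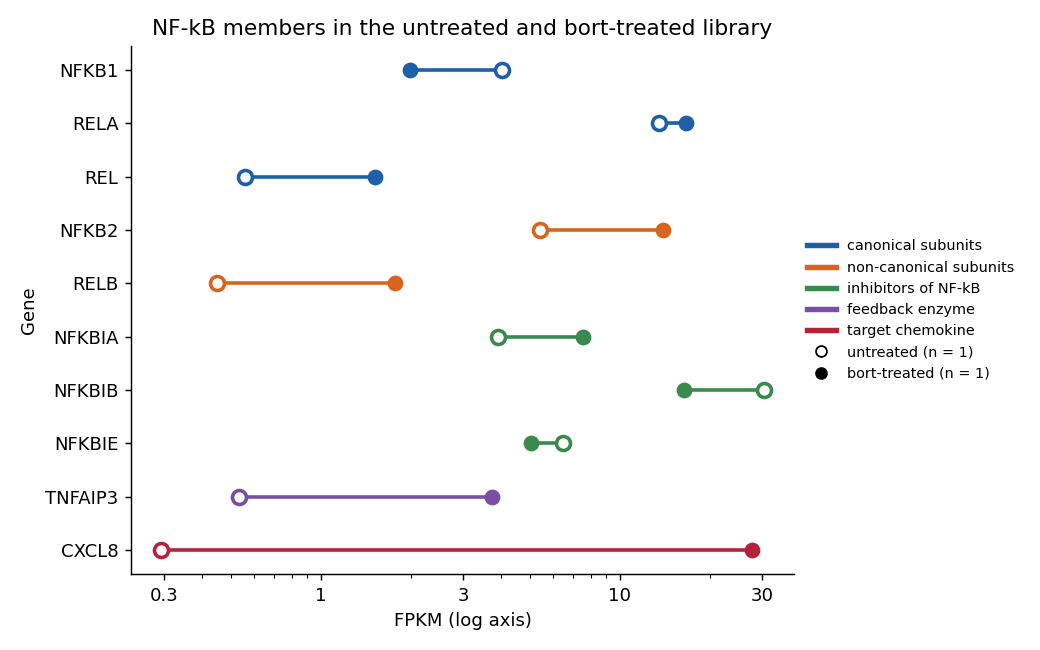
FPKM of the 10 genes (log axis) in the untreated library (open circle) and the bort-treated library (filled circle), 1 library each and no error bars. CXCL8 spans 0.293 to 27.6 FPKM, and NFKB1, NFKBIB and NFKBIE are the 3 genes whose filled circle lies to the left.

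Among the canonical subunits the 3 genes did not move one way. RELA, the gene of the transactivating subunit p65, had the highest level of all 5 subunits in both libraries, 13.6 FPKM untreated and 16.6 FPKM bort-treated. Its log2 difference of 0.28 was the smallest of the 5 in size. NFKB1, the precursor of p50, was at 4.04 FPKM untreated and 1.99 FPKM bort-treated, a log2 difference of -0.76 and a change in FPKM of -50.8%. It was the only subunit gene with a lower level in the bort-treated library. REL, the gene of c-Rel, went the other way, from 0.559 to 1.52 FPKM, with a log2 difference of 0.69. None of the 3 passed 2-fold on log2(FPKM + 1). Without a pseudocount NFKB1 passed 2-fold, at -1.02, and so did REL, at 1.44.

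Both non-canonical subunits were higher in the bort-treated library. NFKB2, the precursor p100 of p52, was at 5.42 FPKM untreated and 13.9 FPKM bort-treated, a log2 difference of 1.22 and a ratio of 2.57. RELB, its partner, was at 0.451 and 1.77 FPKM, a log2 difference of 0.93 and a ratio of 3.93. RELB shares with CXCL8 an untreated value below 0.501 FPKM, so it too is listed only through the bort-treated library. NFKB2 passed 2-fold on log2(FPKM + 1) and RELB did not, but RELB passed with each smaller pseudocount run and with none, at 1.97.

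**Figure D2:**
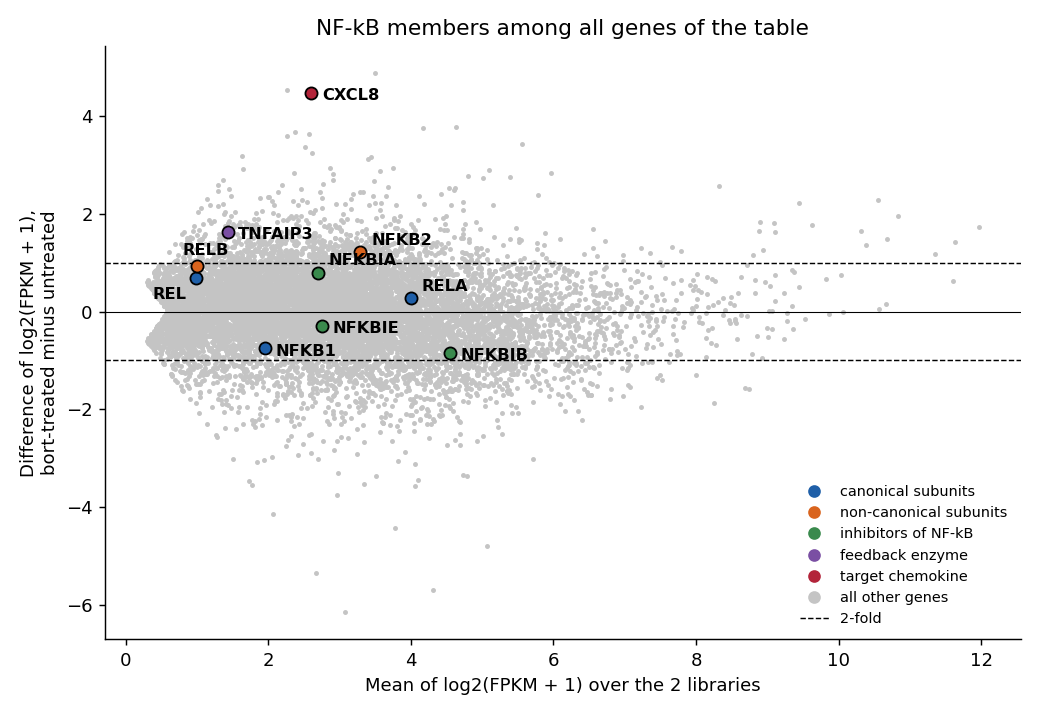
Difference of log2(FPKM + 1), bort-treated minus untreated, against the mean of log2(FPKM + 1) for all 10987 genes (grey) and the 10 NF-kB genes (coloured by role), with dashed lines at 2-fold. CXCL8, TNFAIP3 and NFKB2 lie above the upper line and no NF-kB gene lies below the lower one.

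The mean log2 difference was 0.071 over the 3 canonical subunits and 1.08 over the 2 non-canonical ones, so that canonical minus non-canonical was -1.01. RELB, below 0.501 FPKM untreated, could be listed only by being higher, so the direction of its part in this contrast was fixed. The sum of the canonical transcripts was nearly level, at 18.2 FPKM untreated and 20.2 FPKM bort-treated. The non-canonical sum was 5.87 and 15.7 FPKM. Canonical transcripts thus outnumbered non-canonical ones 3.09 to 1 per length in the untreated library and 1.28 to 1 in the bort-treated library. The non-canonical share of all subunit FPKM was 24.4% and 43.8%. The ratio of the precursor genes moved the same way, with NFKB2 at 1.34 times the FPKM of NFKB1 in the untreated library and at 7.02 times in the bort-treated library. RELA held 56.4% of the subunit FPKM untreated and 46.4% bort-treated, and NFKB1 held 16.8% and 5.54%. Transcript levels do not give the amount of p50 or p52, which are made from their precursors by processing.

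**Figure D3:**
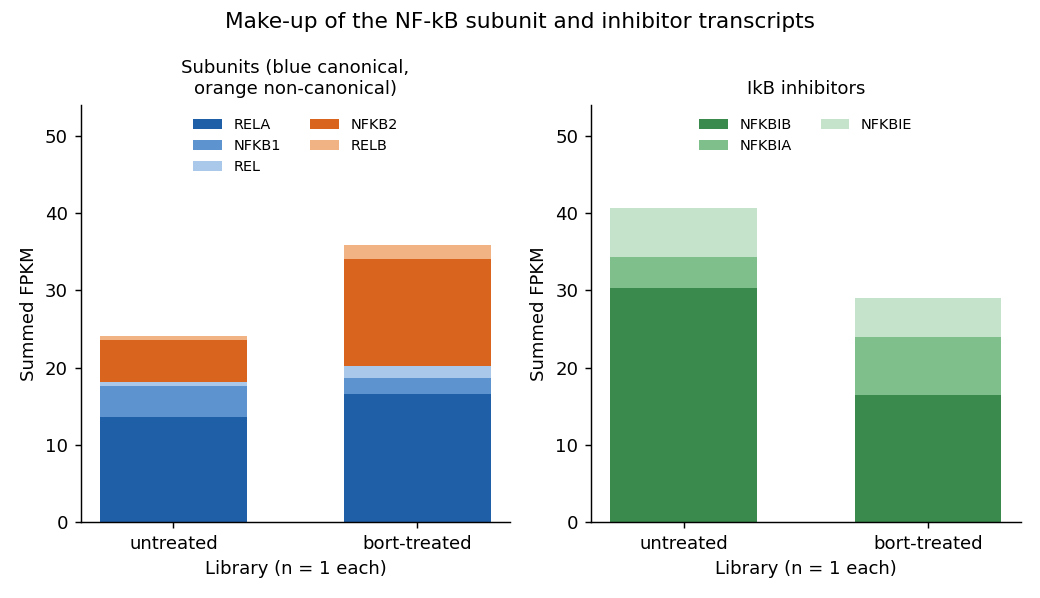
Summed FPKM of the 5 subunit genes (left) and the 3 IkB inhibitor genes (right) in both libraries, stacked by gene from 0, 1 library per bar. NFKB2 is the segment that grows most, from 5.42 to 13.9 FPKM, and the inhibitor bar is shorter after bort, at 29.1 against 40.7 FPKM.

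The inhibitors of NF-kB differed from one another. NFKBIA encodes IkB-alpha, the inhibitor that NF-kB itself resynthesises in a fast feedback loop. It was at 3.92 FPKM untreated and 7.54 FPKM bort-treated, a log2 difference of 0.79, short of 2-fold. NFKBIB encodes IkB-beta, a slower inhibitor, and was at 30.3 and 16.5 FPKM, a log2 difference of -0.84. NFKBIB was the most abundant of the 10 genes in the untreated library. NFKBIE, the gene of IkB-epsilon, was at 6.46 and 5.06 FPKM, a log2 difference of -0.30. NFKBIB overlaps SIRT2 on the other strand in GENCODE 29, and without strand their reads cannot be told apart. The methods name a stranded kit and the labels another, and SIRT2 was at 5.77 FPKM untreated and 6.45 FPKM bort-treated. No protein-coding gene overlaps any of the 10 genes on its own strand in that annotation.

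The share of NFKBIA in the summed FPKM of the 3 inhibitors was 9.64% untreated and 25.9% bort-treated, while that of NFKBIB was 74.5% and 56.7%. The summed FPKM of the 5 subunits was 0.590 times that of the inhibitors in the untreated library and 1.23 times in the bort-treated library.

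In order of FPKM the untreated library read NFKBIB, RELA, NFKBIE, NFKB2, NFKB1, NFKBIA, REL, TNFAIP3, RELB and CXCL8. The bort-treated library read CXCL8, RELA, NFKBIB, NFKB2, NFKBIA, NFKBIE, TNFAIP3, NFKB1, RELB and REL. RELA at 16.6 FPKM and NFKBIB at 16.5 FPKM were neighbours there, as were NFKB1 at 4.04 FPKM and NFKBIA at 3.92 FPKM in the untreated library, and without replicates it is unknown which neighbours differ.

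Past 2-fold on log2(FPKM + 1), 3 of the 10 genes were higher (CXCL8, TNFAIP3 and NFKB2) and 0 were lower. By that measure 8.08% of all genes were higher and 10.2% were lower. At 1.5-fold, 6 of the 10 were higher and 2 lower, against 20.8% and 21.6% of all genes. The median log2 difference was 0.74 over the 10 genes and 0.0049 over all genes. These counts include CXCL8 and RELB, which could be listed only by being higher after bort. Without a pseudocount 5 of the 10 were 2-fold higher and 1 was lower, against 15.2% and 15.8% of all genes. A floor of 1 FPKM, required in each library, left 6 of the 10, and of these only NFKB2 passed 2-fold, against 7.77% of the genes so kept that were higher and 10.5% that were lower.

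Log2 differences over the whole table moved against transcript GC content. The Spearman coefficient was -0.48 across 10907 genes, which share these 2 libraries and are not replicates. GC content of the 10 genes, for the longest transcript in GENCODE 29, ran from 33.4% for CXCL8 to 65.4% for RELB, against a median of 48.6% over all genes. RELB and NFKB2, at 62.4% GC, were higher after bort, while GC-rich genes tended to be lower. RELB, like CXCL8, was below 0.501 FPKM untreated and could be listed only by being higher. With the GC trend removed the log2 differences of RELB and NFKB2 were 1.60 and 1.74. The canonical minus non-canonical difference, in which the direction of RELB was fixed, was then -1.61. CXCL8 kept 3.82 and TNFAIP3, of 49.5% GC, had 1.68. NFKBIA came to 1.00, just under 2-fold, and REL, of 38.7% GC, to 0.25. NFKBIB came to -0.40, and NFKBIE turned from -0.30 to 0.17. NFKB1, of 50.1% GC, stayed lower at -0.68.

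The wider pathway was described by 74 further genes, of which 58 were listed, 7 of them 2-fold higher and 4 of them 2-fold lower in the bort-treated library, beside 8.08% and 10.2% of all genes. Their median log2 difference was 0.30, against 0.0049 over all genes. Of 9 NF-kB-activating ligand genes, TNF and IL1B among them, 0 were listed. Their levels in these libraries were not analysed here. Of 12 receptor genes 7 were listed, 3 of them 2-fold higher and 1 of them 2-fold lower. TNFRSF12A, the receptor for TWEAK and an inducer of the non-canonical pathway, was at 4.52 FPKM untreated and 24.9 FPKM bort-treated, a log2 difference of 2.23. TNFRSF10B, a death receptor for TRAIL, was at 3.23 and 14.6 FPKM, and CD40 at 0.358 and 1.83 FPKM, again a gene listed through the bort-treated library. TNFRSF1B, the second TNF receptor, was at 13.4 and 1.199 FPKM, a log2 difference of -2.72, whereas TNFRSF1A, the main TNF receptor, was at 5.21 and 7.94 FPKM.

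The canonical adaptors and kinases, all 13 listed, held 1 gene 2-fold higher and 2 genes 2-fold lower, beside 8.08% and 10.2% of all genes. IRAK1, a kinase of the interleukin 1 and Toll-like receptor route, was at 63.2 FPKM untreated and 17.8 FPKM bort-treated, a log2 difference of -1.77. TAB1, a partner of the kinase TAK1, was at 11.2 and 5.07 FPKM, a log2 difference of -1.01. TRAF6, the ubiquitin ligase downstream of IRAK1, was at 1.79 and 5.20 FPKM, a log2 difference of 1.15. With the GC trend removed TRAF6 was at 0.87 and TAB1 at -0.57, both short of 2-fold, and IRAK1 at -1.22. With no pseudocount 5 of the 13 were 2-fold higher, against 15.2% of all genes. With the GC trend removed 0 of the 13 were, against 768 of 10907 genes.

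Among the non-canonical regulators, 4 of 5 listed, 1 passed 2-fold, beside 8.08% of all genes higher and 10.2% lower. TRAF2, an adaptor that helps to destroy NIK, was at 27.3 FPKM untreated and 10.8 FPKM bort-treated, a log2 difference of -1.25, which was -0.78 and short of 2-fold with the GC trend removed. MAP3K14, the gene of NIK, was at 2.25 and 3.88 FPKM, and TRAF3, the other adaptor of that complex, at 2.25 and 1.97 FPKM. BIRC2, its ubiquitin ligase, had the largest positive log2 difference of this list, 0.89, at 6.02 and 12.04 FPKM.

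Of 7 genes of the IkB kinases, related kinases and adaptors, all listed, 2 were 2-fold higher and 0 lower. Over all genes 8.08% were higher and 10.2% lower. None of the 3 genes of the core IkB kinase complex passed 2-fold. CHUK, the catalytic subunit IKK-alpha, was at 6.73 FPKM untreated and 6.07 FPKM bort-treated, and IKBKB, the catalytic subunit IKK-beta, at 6.11 and 3.41 FPKM, a log2 difference of -0.69. IKBKG, the regulatory subunit NEMO, was at 9.49 and 7.24 FPKM. The related kinase TBK1 was higher after bort, at 7.73 and 17.9 FPKM, as was its adaptor AZI2, at 4.55 and 14.8 FPKM, but with the GC trend removed TBK1 was at 0.70, short of 2-fold.

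Of 8 genes of the ligase that marks IkB for the proteasome, 0 passed 2-fold on log2(FPKM + 1). Of all genes 8.08% were higher and 10.2% lower by that measure. BTRC, the beta-TrCP protein that recognises phosphorylated IkB, lay just short at 0.99, with 1.80 FPKM untreated and 4.59 FPKM bort-treated, a ratio of 2.54. This list held 1 gene 2-fold higher with each smaller pseudocount, with none, with upper quartile scaling and with totals taken without the 20 most abundant genes. The most negative was that of NEDD8, which activates the cullin of this ligase, -0.47, at 16.5 and 11.6 FPKM. Of 12 ubiquitin editing genes, 1 passed 2-fold, TAX1BP1, a partner of A20, at 8.19 and 20.7 FPKM. TNIP2, an A20-binding inhibitor, had the most negative difference of that list, -0.68, at 13.1 and 7.83 FPKM. The other IkB family members and regulators, 7 of 8 listed, held 0 genes past 2-fold, from COMMD1 at -0.65 to NKIRAS1 at 0.68. BCL3, the nuclear IkB that pairs with p50 or p52, was at 0.537 and 0.526 FPKM.

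**Figure D4:**
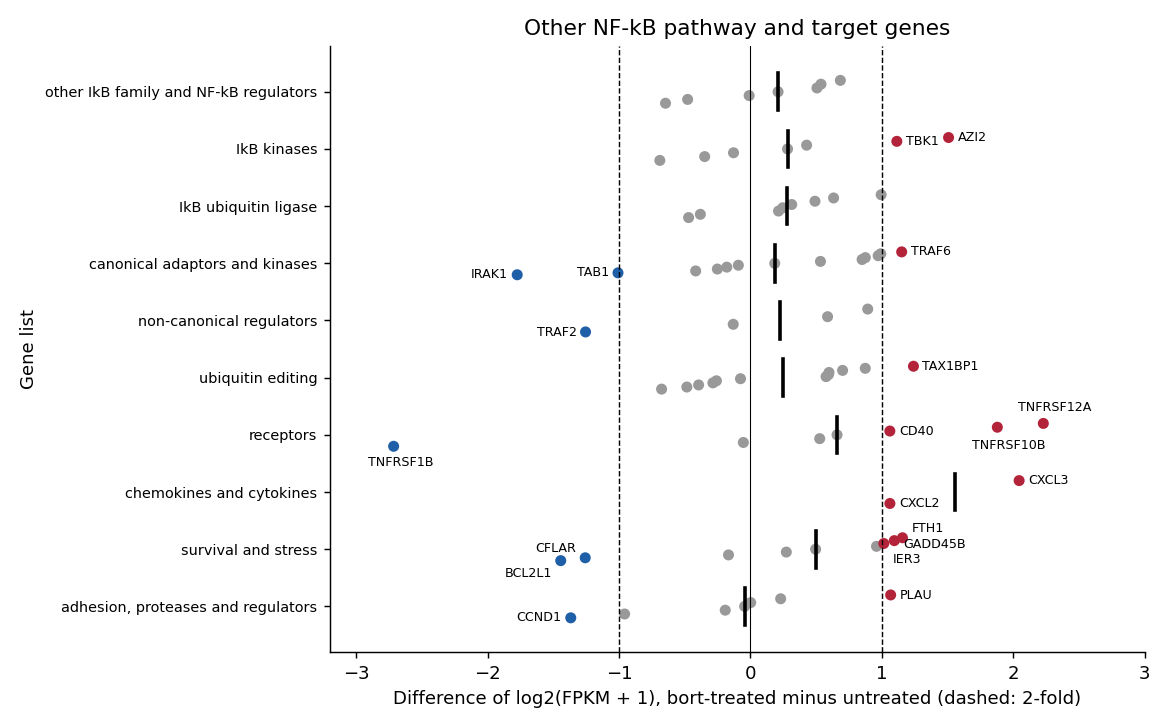
Difference of log2(FPKM + 1), bort-treated minus untreated, for the listed genes of 7 pathway lists and 3 target lists, 1 point per gene, with a black bar at the median of each list and dashed lines at 2-fold. Genes 2-fold higher are red and genes 2-fold lower are blue, and both colours occur among the canonical adaptors, the receptors and the targets.

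Besides CXCL8, 36 known NF-kB target genes were looked up and 18 were listed, 6 of them 2-fold higher and 3 of them 2-fold lower, beside 8.08% and 10.2% of all genes. Their median log2 difference was 0.25, but 3 of the 18, CXCL3, XIAP and TNFAIP8, were below 0.501 FPKM untreated and had to be higher. Of 13 chemokine and cytokine genes 2 were listed, both from the CXCL family of CXCL8. CXCL3 was at 0.431 FPKM untreated and 4.90 FPKM bort-treated, a log2 difference of 2.04, and is listed only through the bort-treated library. CXCL2 was at 0.646 and 2.43 FPKM, a log2 difference of 1.06, which was 0.98 with the GC trend removed. CXCL1, IL6, CCL2 and CCL3 were not listed.

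The survival and stress targets were divided. The ferritin heavy chain gene FTH1 was at 297.2 FPKM untreated and 663.8 FPKM bort-treated, GADD45B at 1.13 and 3.54 FPKM, and IER3 at 10.9 and 23.0 FPKM, all 3 past 2-fold. FTH1 has many processed copies in the genome, so its reads may be divided among them. The apoptosis inhibitors BCL2L1 and CFLAR were lower. XIAP, another apoptosis inhibitor, was higher, at 0.451 and 1.82 FPKM, a log2 difference of 0.96, but could be listed only by being higher. BCL2L1 was at 43.2 and 15.3 FPKM, a log2 difference of -1.44, and CFLAR, which blocks caspase 8, at 2.69 and 0.545 FPKM, a log2 difference of -1.26. Among the other targets PLAU, the urokinase gene, was at 1.29 and 3.79 FPKM and CCND1, cyclin D1, at 4.99 and 1.32 FPKM. ICAM1, an adhesion molecule, was at 12.4 FPKM in both libraries. Erythroid cells also express BCL2L1 and FTH1, and the erythroid markers above were mostly lower after bort, by values whose part in these differences was not tested.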

How the data were processed

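RNA sequencing of 2 libraries, 1 labelled as treated with bort and 1 as untreated, was analysed. The authors deposited FPKM per gene, made from trimmed reads with HISAT2 2.0.4 (mapping) and StringTie 1.2.3 (abundance), on GRCh37 per the labels. Every gene of the table exceeds 0.5 FPKM in at least 1 library. Depth is unknown, and no counting error can be given. Each of the 10 symbols occurs on 1 identifier. Differences of log2(FPKM + 1) and a threshold of 2-fold were used, with no test. The 10 genes, the gene lists and the settings were chosen with earlier results of these data known. Genes named are the 10, list genes past 2-fold or at the ends of their list, and the 3 genes nearest to CXCL8 in both levels. MAP3K14, TRAF3, CHUK, IKBKG, BCL3, TNFRSF1A, ICAM1, SIRT2, XIAP, TNFAIP8 and several markers in the closing section were added once their values were known. GC content, for 10907 genes (99.3%), came from the longest GENCODE 29 transcript, and its trend was removed by lowess with a span of 0.3. The calculations were tested on simulated data. Software was statsmodels 0.14.6, scipy 1.17.1, pandas 2.3.3, matplotlib 3.10.9 and numpy 2.4.6 under Python 3.11.15. The level of 1 marker gene is not given.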

Additional observations from a re-analysis of the deposited data

How the results depend on the processing

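No paired analysis was possible because there is only 1 library in each group, which also leaves none to drop. Of 76 values of the 10 genes under other settings, 68 kept their direction and side of 2-fold. NFKBIE reversed to 0.17 with the GC trend removed. The others passed 2-fold: NFKB1 at -1.02 with no pseudocount, REL at 1.29 with 0.1 FPKM and 1.44 with none, and RELB at 1.76, 1.26 and 1.97 with 0.1, 0.5 and no pseudocount and at 1.60 with the GC trend removed. Canonical minus non-canonical was -1.61 with the GC trend removed, and from -1.001 to -1.46 elsewhere, the latter under a floor of 1 FPKM in each library, which leaves out REL and RELB. Of the 10 genes, 5 were 2-fold higher with 0.1 FPKM and with none, 1 under that floor, which also drops CXCL8 and TNFAIP3, 6 at 1.5-fold and 1 at 4-fold. With no pseudocount 1 was lower, and at 1.5-fold 2 were. Of pathway genes, 13 were higher with 0.1 FPKM and with none, 11 with 0.5 FPKM, 21 at 1.5-fold and 1 at 4-fold, while 2 were lower with the GC trend removed, 7 at 1.5-fold and 1 at 4-fold. Of target genes 1 was higher and 0 lower at 4-fold. Over all genes 1576 were higher with 0.1 FPKM, 1675 higher and 1736 lower with none, 681 lower with the GC trend removed, 2282 higher and 2378 lower at 1.5-fold, and 92 and 135 at 4-fold. Higher genes made up 44.1% of all past 2-fold, but 53.6% with upper quartile scaling, 54.2% with totals taken without the 20 most abundant genes and 53.0% with the GC trend removed. Changes with pseudocount, filter and threshold follow from their construction, and for GC the cause was not tested.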

Other observations

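Markers of cell types other than blood monocytes were present in both libraries. Of 8 fibroblast, epithelial and endothelial markers 3 were listed, and all were epithelial. The keratin genes KRT18 and KRT8 were at 85.3 and 53.0 FPKM in the untreated library and at 107.7 and 63.8 FPKM in the bort-treated library, and EPCAM at 42.8 and 25.7 FPKM. Among markers of lymphocytes, CD3D was at 7.51 and 10.8 FPKM and NKG7, a cytotoxic granule gene, at 0.418 and 4.48 FPKM, past 2-fold. NKG7, below 0.501 FPKM untreated, is listed only through the bort-treated library and had to be higher there. Among the erythroid markers the transcription factor genes KLF1 and GATA1 were lower after bort, at 147.1 and 17.4 FPKM and at 161.3 and 48.7 FPKM, while HBG1 was at 1487 and 1536 FPKM. Of the monocytic markers CD68 was at 5.94 and 20.2 FPKM and LYZ at 7.61 and 28.7 FPKM, both past 2-fold, and SPI1, the myeloid transcription factor PU.1, was at 4.42 and 8.44 FPKM.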
